A study of Mus musculus with 15 samples.

Results

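Imprinted genes are expressed mainly from the copy inherited from one parent. A list of 42 of them was followed by symbol through 15 RNA-seq libraries of mouse embryonic stem cells (mESCs), and all 42 were among the 23412 genes counted in every library. The rule names the genes by symbol and uses no measured value, but the list was drawn up with earlier results of these data known. It covered the H19/Igf2, Dlk1/Meg3, Peg3, Peg10/Sgce, Snrpn, Kcnq1ot1, Igf2r and Gnas clusters and a set of genes taken singly. Of the 42, 38 had enough counts to be tested, and Airn, Dcn, Snrpn and Snurf did not.

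The study asked what the cohesin subunits STAG1 and STAG2 each do in these cells. Every library came from v6.5 cells, a male mESC line grown on gelatin, and was made from polyA RNA taken 48 h after transfection with 50 nM siRNA. The 5 groups of 3 libraries were WT siGLO (wild-type cells with the siGLO transfection control), WT siStag1 (wild-type cells with an siRNA against Stag1), Stag1-KO siGLO (Stag1-/- cells with the control), Stag2-KO siGLO (Stag2-/- cells with the control) and Stag2-KO siStag1 (Stag2-/- cells with the siRNA against Stag1, so depleted of both). Each knockout genotype was 1 CRISPR clone sampled 3 times in each group, so that genotype and clone cannot be told apart. The p-values measure the spread between samples of a clone or of the wild-type cells. Total gene counts were 14982560 to 19070126 per library. Replicate 1 of Stag2-KO siGLO and replicate 1 of Stag2-KO siStag1 stood apart from their groups: their correlations of log2 CPM with replicates 2 and 3 were 0.975 to 0.981, against 0.989 and 0.991 between replicates 2 and 3. Stag2 was at 2329 to 2334 normalized counts in WT siGLO, 663 to 739 in Stag2-KO siGLO and 851 to 941 in Stag2-KO siStag1. Stag1 was at 2012 to 2288 in WT siGLO, 353 to 517.5 in WT siStag1 and 629 to 781 in Stag2-KO siStag1. In Stag1-KO siGLO the Stag1 count was 1826 to 2368, at the wild-type level, so this count does not check the label of that clone. The study reports an in-frame deletion in this clone, with Stag1 transcripts at a normal level and no STAG1 protein detected. The ESC markers Pou5f1, Sox2, Nanog and 7 others had a summed level of 66490 to 118600 normalized counts.

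A normalized count here is a gene's read count divided by the library's TMM-scaled total and brought to the mean depth, and values are given in the order of replicates 1, 2 and 3. A gene is called when its adjusted p (edgeR quasi-likelihood test, two-sided, Benjamini-Hochberg over the 14508 genes tested) is below 0.1. A log2 fold change is given ± SE and is against WT siGLO unless another group is named, and "rose" and "fell" are used of called genes only.

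The parental copy that stays active is set in the germline by DNA methylation at imprinting control regions, which the embryo keeps through the wave of demethylation after fertilization. At H19/Igf2, the insulator protein CTCF binds the unmethylated maternal control region and keeps shared enhancers from Igf2, and cohesin is held at such CTCF sites. In other clusters, such as Kcnq1ot1, Igf2r and Gnas, a long non-coding RNA is expressed from one copy and neighbouring genes are kept silent on that copy. ZFP57, a zinc finger protein of ESCs, binds methylated copies of the hexamer TGCCGC in control regions and helps to maintain their methylation. Imprinting in cultured ESC lines is known to vary between lines and passages. The libraries do not separate the parental alleles, so each value is the sum over both copies.

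Promoter windows of RefSeq genes (GRCm38.p6, 250 bases before to 50 after a start site) were matched for 32 of the 42 genes. Windows for H19, Sgce, Peg13, Trappc9, Impact, Nespas, Peg10, Dcn, Cdkn1c and Rtl1 were not used here. The ZFP57 hexamer, searched as TGCCGC on the given strand and as its reverse complement GCGGCA, occurred in 12 of the 46 windows of these genes (26.1%) and in 3809 of all 32817 windows (11.6%), each position counted once because Snrpn and Snurf share 1 window. Of the 12, 2 are Mest windows that overlap. A match is a description of the letters and says nothing about binding. The windows shown are those of Mest and Zdbf2, which moved in opposite directions in the 2 knockout clones, and of Meg3 and Nnat, 2 of the 7 genes that rose in both. These 2 were picked because they hold the hexamer, and no window of the other 5 (Dlk1, Inpp5f, Mirg, Peg3 and Rian) holds it. All 4 genes are on the + strand, and capitals mark the hexamer. Zdbf2 and Meg3 each have 1 window with the hexamer and 1 without it. Mest has 1 without it and 2 with it, which lie 3 bases apart, and the first of these is shown.
Mest promoter window, chr6:30733256-30733555: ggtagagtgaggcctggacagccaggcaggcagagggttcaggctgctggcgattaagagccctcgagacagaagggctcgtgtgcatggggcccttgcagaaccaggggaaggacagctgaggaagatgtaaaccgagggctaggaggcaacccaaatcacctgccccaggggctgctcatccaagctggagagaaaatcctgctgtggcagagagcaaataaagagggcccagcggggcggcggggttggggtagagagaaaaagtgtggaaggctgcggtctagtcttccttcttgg
Mest promoter window, chr6:30737800-30738099: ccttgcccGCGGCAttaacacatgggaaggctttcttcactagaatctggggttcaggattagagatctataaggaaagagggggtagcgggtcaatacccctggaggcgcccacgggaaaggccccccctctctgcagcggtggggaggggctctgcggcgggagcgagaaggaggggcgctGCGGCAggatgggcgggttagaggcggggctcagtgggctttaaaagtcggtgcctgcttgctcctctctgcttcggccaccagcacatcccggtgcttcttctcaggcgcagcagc
Zdbf2 promoter window, chr1:63200108-63200407: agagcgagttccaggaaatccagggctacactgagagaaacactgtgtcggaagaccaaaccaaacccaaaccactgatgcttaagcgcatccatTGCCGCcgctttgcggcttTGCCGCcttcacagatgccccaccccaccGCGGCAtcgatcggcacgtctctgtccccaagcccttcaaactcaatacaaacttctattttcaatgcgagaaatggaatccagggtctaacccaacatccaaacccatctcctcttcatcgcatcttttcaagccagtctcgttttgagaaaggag
Zdbf2 promoter window, chr1:63273019-63273318: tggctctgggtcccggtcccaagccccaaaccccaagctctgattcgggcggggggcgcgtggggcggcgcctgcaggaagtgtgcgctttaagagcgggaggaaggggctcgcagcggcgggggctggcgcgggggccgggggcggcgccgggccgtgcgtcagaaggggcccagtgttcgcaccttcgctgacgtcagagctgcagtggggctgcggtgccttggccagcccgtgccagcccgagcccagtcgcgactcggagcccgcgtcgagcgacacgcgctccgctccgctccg
Meg3 promoter window, chr12:109540746-109541045: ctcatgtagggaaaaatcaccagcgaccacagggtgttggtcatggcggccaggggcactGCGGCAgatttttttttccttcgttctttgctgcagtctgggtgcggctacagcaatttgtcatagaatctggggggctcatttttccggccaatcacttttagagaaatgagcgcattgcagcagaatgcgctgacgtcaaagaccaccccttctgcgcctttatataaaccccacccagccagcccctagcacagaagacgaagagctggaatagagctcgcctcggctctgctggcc
Meg3 promoter window, chr12:109545148-109545447: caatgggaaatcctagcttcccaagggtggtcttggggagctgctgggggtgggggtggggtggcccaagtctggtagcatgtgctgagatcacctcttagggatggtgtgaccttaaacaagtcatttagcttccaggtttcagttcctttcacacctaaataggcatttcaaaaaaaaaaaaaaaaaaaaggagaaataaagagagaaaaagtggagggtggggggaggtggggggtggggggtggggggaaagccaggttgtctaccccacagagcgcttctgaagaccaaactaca
Nnat promoter window, chr2:157559828-157560127: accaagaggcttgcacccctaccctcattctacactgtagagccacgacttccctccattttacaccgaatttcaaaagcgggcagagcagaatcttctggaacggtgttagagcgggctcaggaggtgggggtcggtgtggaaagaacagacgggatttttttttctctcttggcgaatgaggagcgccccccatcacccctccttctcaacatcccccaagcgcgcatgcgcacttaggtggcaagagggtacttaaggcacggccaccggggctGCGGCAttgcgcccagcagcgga
The Mest window at the downstream start held 2 matches and 17 CpG dinucleotides, and that at the upstream start 0 and 8. For Zdbf2 the upstream window held 3 matches and 15 CpG, and the downstream window 0 and 38. The upstream Meg3 window held 1 match and 13 CpG and the downstream window 0 and 1, and that of Nnat held 1 match and 17 CpG.

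In Stag1-KO siGLO, 13 of the 38 tested imprinted genes were called (34.2%), against 20.0% of all genes tested. Of these, 11 rose and 2 fell, where 10.1% of all genes rose and 9.93% fell. In Stag2-KO siGLO, 24 were called (63.2%), against 28.3% of all genes. There 17 rose and 7 fell, with 13.9% of all genes higher and 14.4% lower. In Stag2-KO siStag1, 23 were called (60.5%), against 43.9% of all genes, and 14 rose and 9 fell, with 22.6% of all genes higher and 21.3% lower. In WT siStag1 none was called by edgeR, against 0.248% of all genes: 4 of the 38 had an unadjusted p below 0.05, as did 922 of all 14508 genes. DESeq2 called 1 there, Cdkn1c, against 0.903% of all genes in DESeq2. With the replicate number as a block, 2 were called in WT siStag1 (Cdkn1c and Meg3), against 1.63% of all genes with the block.

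The median absolute log2 fold change of the imprinted genes was 0.34 in Stag1-KO siGLO, 0.45 in Stag2-KO siGLO, 0.80 in Stag2-KO siStag1 and 0.17 in WT siStag1, where that of all genes was 0.21, 0.25, 0.31 and 0.11. Their median signed log2 fold change was 0.05, 0.28, 0.25 and 0.07 in the same order, against -0.01, 0.01, 0.01 and -0.00 for all genes. In all, 30 of the 38 (78.9%) were called in at least 1 comparison with WT siGLO, against 54.3% of all genes. These comparisons share the same 3 WT siGLO libraries. Without replicate 1 of both Stag2-/- groups, a fit added after the data were seen, 24 genes were called in Stag2-KO siGLO and 26 in Stag2-KO siStag1, against 30.5% and 45.9% of all genes in that fit. In Stag2-KO siGLO this fit gained Peg10 and Sgce and lost Kcnq1ot1 and Rtl1, and in Stag2-KO siStag1 it gained Grb10, Peg10, Peg3 and Sgce and lost Nap1l5. The count in Stag2-KO siGLO was lower, at 15, without WT siGLO replicate 3 or without Stag2-KO siGLO replicate 2. Those counts were not set against all genes in the same fits.

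**Figure D1:**
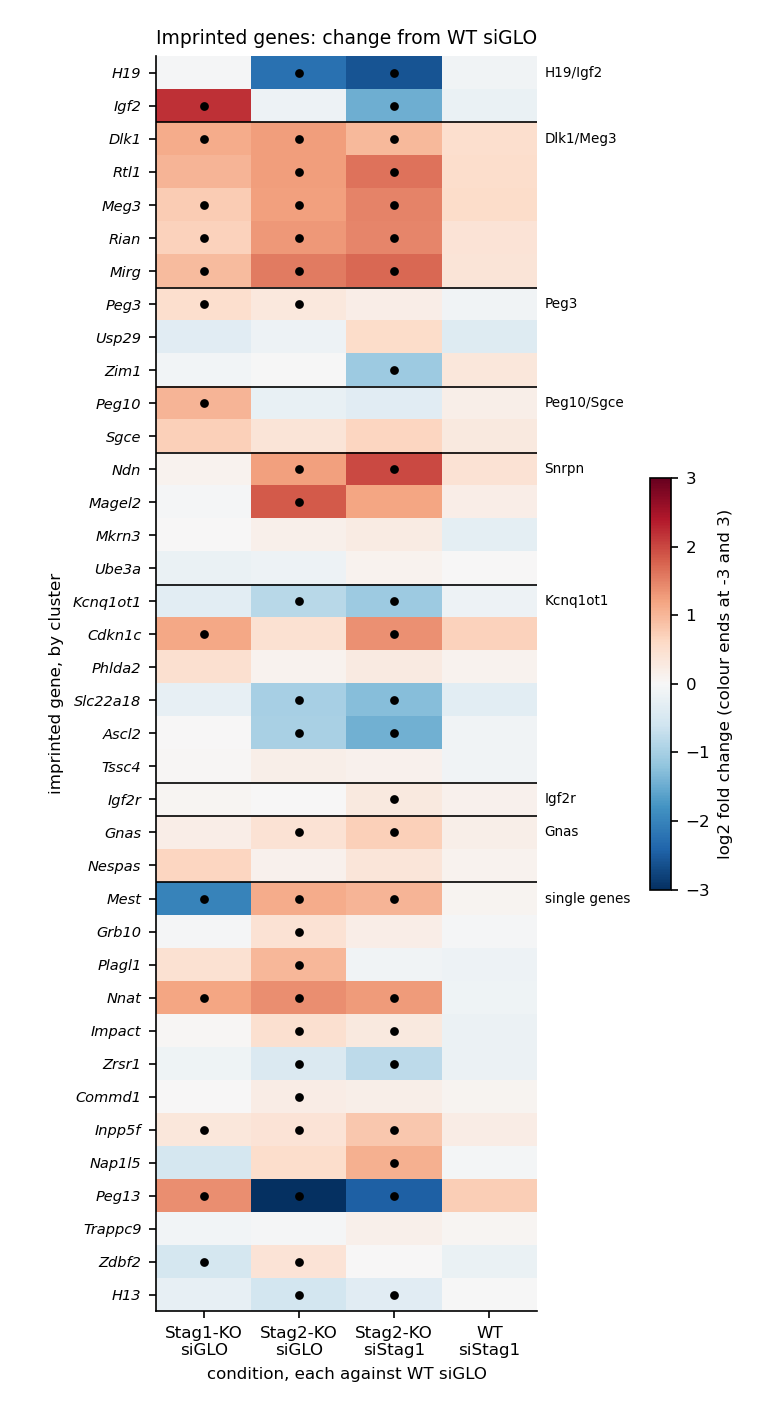
Log2 fold change of the 38 tested imprinted genes (rows, by cluster) in 4 conditions against WT siGLO (columns); red is higher, blue is lower, the colour scale ends at -3 and 3, and a black dot marks an adjusted p below 0.1. The Dlk1/Meg3 rows are red in the 3 conditions with a knockout, while Mest, Peg13 and Zdbf2 differ in direction between the Stag1-KO and Stag2-KO columns.

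**Figure D2:**
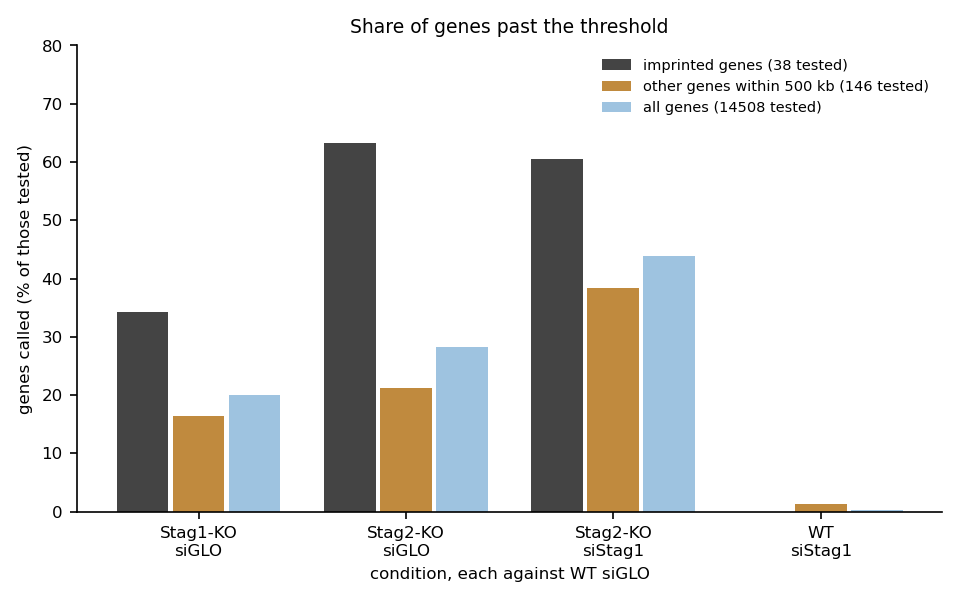
Bars give the percent of tested genes called against WT siGLO in each condition, for the 38 imprinted genes, for 146 other genes within 500 kb of them, and for all 14508 genes. The imprinted genes stand at 34.2%, 63.2%, 60.5% and 0%, the neighbouring genes at 16.4%, 21.2%, 38.4% and 1.37%, and all genes at 20.0%, 28.3%, 43.9% and 0.248%.

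At H19/Igf2 (chromosome 7, GRCm38), the growth factor gene Igf2 and the non-coding RNA H19 changed in different conditions. Igf2 (chr7:142650766-142666816, - strand), expressed from the paternal copy, was at 565, 817 and 709.5 normalized counts in WT siGLO, 533, 649 and 640.4 in WT siStag1, 3324, 3092 and 3192 in Stag1-KO siGLO, 666, 677 and 526 in Stag2-KO siGLO and 305, 209 and 247 in Stag2-KO siStag1. The Stag1-KO siGLO libraries were above all 12 others, and the Stag2-KO siStag1 libraries below all 12 others, while the other 3 groups overlapped. Its log2 fold change was 2.20 ± 0.15 (adjusted p = 1.86e-07) in Stag1-KO siGLO, a 4.59-fold rise. In Stag2-KO siStag1 it was -1.46 ± 0.15 (log2 scale, adjusted p = 2.80e-06), 2.75-fold lower. In Stag2-KO siGLO it was -0.16 ± 0.15 (log2 scale, adjusted p = 0.462), with a 95% interval of -0.45 to 0.12, and the difference did not pass the test.

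H19 (chr7:142575529-142578143, - strand), expressed from the maternal copy as a polyadenylated RNA that hosts the microRNA Mir675, was at 176, 195 and 166 normalized counts in WT siGLO, 119, 190.4 and 185 in WT siStag1, 161, 133 and 225 in Stag1-KO siGLO, 38.1, 51.7 and 24.3 in Stag2-KO siGLO and 20.7, 35.4 and 32.4 in Stag2-KO siStag1. All 6 Stag2-/- libraries were below all 9 libraries with intact Stag2. H19 fell in Stag2-KO siGLO, with a log2 fold change of -2.23 ± 0.28 (adjusted p = 6.00e-05), and in Stag2-KO siStag1, with -2.60 ± 0.29 (adjusted p = 5.47e-06). In Stag1-KO siGLO the log2 fold change was -0.05 ± 0.25 (adjusted p = 0.934), and the libraries overlapped with those of the wild type. The ratio of H19 to Igf2 normalized counts was 0.262 ± 0.043 (SD, n = 3) in WT siGLO, 0.0541 ± 0.0145 in Stag1-KO siGLO and 0.0600 ± 0.0153 in Stag2-KO siGLO. Both knockout clones thus had a lower ratio, in Stag1-KO siGLO with more Igf2 and in Stag2-KO siGLO with less H19. In Stag2-KO siStag1, where both were lower, it was 0.123 ± 0.051. In bulk RNA, fewer cells of a type and less RNA per cell cannot be told apart.

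Genes of the Dlk1/Meg3 cluster (chromosome 12) rose together in the knockout clones. The non-coding RNAs Meg3, Rian and Mirg come from the maternal copy, while Dlk1, a NOTCH-related membrane protein, and Rtl1, a retrotransposon-derived gene needed in the placenta, come from the paternal copy. Of the 5, 4 rose in Stag1-KO siGLO, and all 5 rose in Stag2-KO siGLO and in Stag2-KO siStag1, where 10.1%, 13.9% and 22.6% of all genes rose. Meg3 (chr12:109541001-109571726, + strand) was at 2347, 2410 and 2874 normalized counts in WT siGLO, 3348, 3250 and 4558 in WT siStag1, 3676, 3245 and 6021 in Stag1-KO siGLO, 6811, 4460 and 6757 in Stag2-KO siGLO and 6898, 6725 and 7898 in Stag2-KO siStag1. All libraries of the other 4 groups lay above the 3 WT siGLO libraries. Meg3 rose by 0.76 ± 0.21 (log2 scale, adjusted p = 0.021) in Stag1-KO siGLO, 1.24 ± 0.21 (adjusted p = 6.57e-04) in Stag2-KO siGLO and 1.50 ± 0.21 (adjusted p = 4.69e-05) in Stag2-KO siStag1. In WT siStag1 it was 0.55 ± 0.21 (log2 scale, adjusted p = 0.587), called only with the replicate block (adjusted p = 0.0562). The Meg3 call in Stag1-KO siGLO was lost without Stag1-KO siGLO replicate 3 (adjusted p of 0.114, log2 fold change 0.44 to 0.93 over the 6 fits that left out 1 library).

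Rian (chr12:109603940-109661716, + strand), which hosts C/D box small nucleolar RNAs, was at 3176, 2854 and 2998 normalized counts in WT siGLO, 3668, 4005 and 4359 in WT siStag1, 3617, 4243 and 6633 in Stag1-KO siGLO, 7874, 6394 and 8048 in Stag2-KO siGLO and 7696, 7927 and 9185 in Stag2-KO siStag1. Here too every library outside WT siGLO was above the 3 WT siGLO libraries. The rise was 0.68 ± 0.17 (log2 scale, adjusted p = 0.0112) in Stag1-KO siGLO, 1.30 ± 0.17 (adjusted p = 6.68e-05) in Stag2-KO siGLO and 1.46 ± 0.17 (adjusted p = 7.53e-06) in Stag2-KO siStag1. The Rian call in Stag1-KO siGLO was kept in all 6 fits that left out 1 library (adjusted p up to 0.0512, log2 fold change 0.39 to 0.85). Mirg (chr12:109729764-109749460, + strand), the host of a large microRNA cluster, was at 143, 81.3 and 112 normalized counts in WT siGLO, 162, 119.6 and 159.6 in WT siStag1, 173, 188 and 292 in Stag1-KO siGLO, 487, 219.8 and 289 in Stag2-KO siGLO and 374, 349.5 and 382 in Stag2-KO siStag1. The knockout libraries were above the WT siGLO libraries, and Stag2-KO siGLO replicate 1 was the highest. Its log2 fold change was 0.95 ± 0.28 (adjusted p = 0.0295) in Stag1-KO siGLO, 1.56 ± 0.28 (adjusted p = 0.001) in Stag2-KO siGLO and 1.71 ± 0.28 (adjusted p = 1.70e-04) in Stag2-KO siStag1. The Mirg call in Stag1-KO siGLO was lost without WT siGLO replicate 2, or Stag1-KO siGLO replicate 3 (adjusted p up to 0.135, log2 fold change 0.68 to 1.17 over the 6 fits that left out 1 library).

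Dlk1 (chr12:109452823-109463336, + strand) was at 126, 74.2 and 96.8 normalized counts in WT siGLO, 156, 114 and 155 in WT siStag1, 209, 166 and 268 in Stag1-KO siGLO, 217, 251 and 239 in Stag2-KO siGLO and 193, 204 and 189 in Stag2-KO siStag1. The 9 knockout libraries did not overlap with those of WT siGLO, and the range of Stag1-KO siGLO spanned those of both Stag2-/- groups. Dlk1 rose by 1.11 ± 0.20 (log2 scale, adjusted p = 0.00167) in Stag1-KO siGLO, 1.25 ± 0.20 (adjusted p = 5.71e-04) in Stag2-KO siGLO and 0.98 ± 0.20 (adjusted p = 0.00155) in Stag2-KO siStag1. The ratio of Meg3 to Dlk1 normalized counts was 26.9 ± 7.3 (SD, n = 3) in WT siGLO, 19.9 ± 2.5 in Stag1-KO siGLO, 25.8 ± 7.2 in Stag2-KO siGLO and 36.8 ± 4.5 in Stag2-KO siStag1. Rtl1 (chr12:109589193-109600330, - strand), antisense to several microRNAs of the maternal copy, was at 18.7, 6.10 and 10.7 normalized counts in WT siGLO, 29.1, 6.44 and 17.4 in WT siStag1, 22.6, 21.4 and 28.02 in Stag1-KO siGLO, 40.2, 24.8 and 20.1 in Stag2-KO siGLO and 44.4, 31.2 and 36.4 in Stag2-KO siStag1. The 9 knockout libraries were above those of WT siGLO, at low counts. It rose in Stag2-KO siGLO, by 1.24 ± 0.48 (log2 scale, adjusted p = 0.0755), and in Stag2-KO siStag1, by 1.64 ± 0.47 (adjusted p = 0.0117). In Stag1-KO siGLO it was at 1.01 ± 0.48 (log2 scale, adjusted p = 0.182), called with the replicate block (adjusted p = 0.054). The Rtl1 call in Stag2-KO siGLO was lost without WT siGLO replicate 2 or 3, or Stag2-KO siGLO replicate 1 or 2 (adjusted p up to 0.251, log2 fold change 0.90 to 1.74 over the 6 fits that left out 1 library). It was lost too without replicate 1 of both Stag2-/- groups, at 0.90 (adjusted p = 0.220). Reads on opposite strands of Rtl1 and the microRNA precursors cannot be assigned with certainty, since the strand setting of the counts is not given in the sources used here.

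At the Peg3 cluster (chromosome 7), Peg3 (chr7:6703892-6730431, - strand), a paternally expressed zinc finger gene, was at 1036, 1206 and 1127 normalized counts in WT siGLO, 1098, 1070 and 983 in WT siStag1, 1673, 1737 and 1353 in Stag1-KO siGLO, 1288, 1625 and 1316 in Stag2-KO siGLO and 1174, 1285 and 1399 in Stag2-KO siStag1. Both single knockouts lay above WT siGLO, with log2 fold changes of 0.50 ± 0.11 (adjusted p = 0.00742) in Stag1-KO siGLO and 0.33 ± 0.11 (adjusted p = 0.0525) in Stag2-KO siGLO. In Stag2-KO siStag1 it was 0.20 ± 0.11 (log2 scale, adjusted p = 0.195) and did not pass. The Peg3 call in Stag2-KO siGLO was lost without WT siGLO replicate 1 or 3, or Stag2-KO siGLO replicate 2 (adjusted p up to 0.242, log2 fold change 0.21 to 0.39 over the 6 fits that left out 1 library). Zim1 (chr7:6671269-6696450, - strand), a maternally expressed zinc finger gene, was at 29.9, 25.4 and 27.1 normalized counts in WT siGLO, 33.8, 42.3 and 29.02 in WT siStag1, 11.8, 37.97 and 28.02 in Stag1-KO siGLO, 14.8, 26.9 and 40.1 in Stag2-KO siGLO and 10.8, 10.4 and 17.2 in Stag2-KO siStag1. It fell only in Stag2-KO siStag1 among the 4 comparisons with WT siGLO, with a log2 fold change of -1.09 ± 0.43 (adjusted p = 0.0594). The Zim1 call in Stag2-KO siStag1 was lost without WT siGLO replicate 1 or 3, or Stag2-KO siStag1 replicate 1 or 2 (adjusted p up to 0.161, log2 fold change -1.36 to -0.97 over the 6 fits that left out 1 library). Usp29, on the opposite strand to Peg3, was at 8.76 to 31.5 normalized counts over the 15 libraries and passed in no comparison.

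At Peg10/Sgce (chromosome 6), Peg10 (chr6:4747306-4760517, + strand), a retrotransposon-derived gene expressed from the paternal copy and needed in the placenta, was at 5390, 5810 and 4425 normalized counts in WT siGLO, 6122, 6581 and 4901 in WT siStag1, 10100, 11800 and 9635 in Stag1-KO siGLO, 5603, 4543 and 3317 in Stag2-KO siGLO and 5519, 3364 and 3428 in Stag2-KO siStag1. The 3 Stag1-KO siGLO libraries were above all others. Its rise in Stag1-KO siGLO was 1.01 ± 0.20 (log2 scale, adjusted p = 0.0025), while it was at -0.21 ± 0.20 (adjusted p = 0.472) in Stag2-KO siGLO and -0.34 ± 0.20 (adjusted p = 0.186) in Stag2-KO siStag1. Without replicate 1 of both Stag2-/- groups Peg10 was called lower in both, with log2 fold changes of -0.41 (adjusted p = 0.0533) and -0.62 (adjusted p = 0.00303). Sgce, which encodes a sarcoglycan and shares its control region with Peg10, was at 90.9 to 229.6 normalized counts. It was at 0.72 ± 0.30 (log2 scale, adjusted p = 0.131) in Stag1-KO siGLO, which passed with the replicate block (adjusted p = 0.0142). With the block Sgce was also called higher in Stag2-KO siStag1, at 0.58 (adjusted p = 0.0186), and Peg10 lower there, at -0.36 (adjusted p = 0.0364), on the log2 scale. Without replicate 1 of both Stag2-/- groups Sgce was called higher, at 0.60 (adjusted p = 0.0793) in Stag2-KO siGLO and 0.93 (adjusted p = 0.00428) in Stag2-KO siStag1 on the log2 scale.

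In the Snrpn cluster (chromosome 7), Ndn and Magel2, which encode MAGE family proteins and are expressed from the paternal copy, rose in Stag2-KO siGLO, and Ndn rose in Stag2-KO siStag1 too. Ndn (chr7:62346569-62350262, + strand) was at 122, 66.1 and 114 normalized counts in WT siGLO, 150.3, 133 and 123 in WT siStag1, 118, 99.3 and 109 in Stag1-KO siGLO, 182, 261 and 268 in Stag2-KO siGLO and 356, 379.7 and 468 in Stag2-KO siStag1. All 6 Stag2-/- libraries lay above all 9 others, and the Stag2-KO siStag1 libraries lay above those of Stag2-KO siGLO. The rise was 1.23 ± 0.21 (log2 scale, adjusted p = 7.66e-04) in Stag2-KO siGLO and 1.99 ± 0.21 (adjusted p = 2.91e-06) in Stag2-KO siStag1, against 0.11 ± 0.22 (adjusted p = 0.792) in Stag1-KO siGLO. Magel2 (chr7:62377010-62381640, + strand) was lower, at 11.2, 18.3 and 1.94 normalized counts in WT siGLO, 16.3, 7.36 and 12.6 in WT siStag1, 11.8, 3.89 and 14.5 in Stag1-KO siGLO, 45.5, 37.7 and 29.6 in Stag2-KO siGLO and 39.4, 13.5 and 18.2 in Stag2-KO siStag1. It rose in Stag2-KO siGLO, with 1.84 ± 0.57 (log2 scale, adjusted p = 0.0323), and was at 1.18 ± 0.59 (adjusted p = 0.128) in Stag2-KO siStag1, where the libraries overlapped with the wild type. With the replicate block Magel2 was called higher in Stag2-KO siStag1, at 1.13 (log2 scale, adjusted p = 0.0962). The Magel2 call in Stag2-KO siGLO was lost without WT siGLO replicate 3 (adjusted p of 0.112, log2 fold change 1.35 to 2.48 over the 6 fits that left out 1 library). Mkrn3, at 68.1 to 127.4 normalized counts, and Ube3a, an E3 ubiquitin ligase gene imprinted in neurons, at 1412 to 2171, passed in no comparison. Snrpn had 0 to 2 counts per library. Snurf had 0 in all 15, and a count of 0 allows up to 3 counts. The exons of Snurf lie within those of Snrpn and cover 10.0% of them. Whether reads there were assigned to either gene is not known, since the annotation behind the counts is not given.

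In the Kcnq1ot1 cluster (chromosome 7), 1 of 6 genes was called in Stag1-KO siGLO (Cdkn1c), 3 in Stag2-KO siGLO and 4 in Stag2-KO siStag1, where 20.0%, 28.3% and 43.9% of all genes were. Kcnq1ot1 (chr7:143203458-143296549, - strand), the long antisense RNA of the paternal copy, was at 230.0, 204 and 455 normalized counts in WT siGLO, 256, 232 and 314 in WT siStag1, 184, 292 and 239 in Stag1-KO siGLO, 96.3, 189 and 212 in Stag2-KO siGLO and 140.0, 142 and 136 in Stag2-KO siStag1. WT siGLO replicate 3 was the highest library, and the Stag2-KO siStag1 libraries were the closest to each other. It fell in Stag2-KO siGLO, at -0.84 ± 0.30 (log2 scale, adjusted p = 0.0552), and in Stag2-KO siStag1, at -1.09 ± 0.30 (adjusted p = 0.00929). The Kcnq1ot1 call in Stag2-KO siGLO was lost without WT siGLO replicate 3, or Stag2-KO siGLO replicate 1 (adjusted p up to 0.359, log2 fold change -1.06 to -0.39 over the 6 fits that left out 1 library). Without replicate 1 of both Stag2-/- groups it was -0.57 (adjusted p = 0.149). The Kcnq1ot1 call in Stag2-KO siStag1 was kept in all 6 fits that left out 1 library (adjusted p up to 0.0802, log2 fold change -1.30 to -0.64). Kcnq1ot1 lies within Kcnq1 on the opposite strand, as an annotated exon of 93092 bp. Since the strand setting of the counts is not given, reads from Kcnq1 cannot be told apart with certainty. Cdkn1c (chr7:143458339-143461050, - strand), a cyclin-dependent kinase inhibitor gene and growth repressor of the maternal copy, was at 1065, 698 and 621 normalized counts in WT siGLO, 1550, 1301 and 1016 in WT siStag1, 2094, 1760 and 1473 in Stag1-KO siGLO, 1063, 1072 and 1144 in Stag2-KO siGLO and 1800, 1896 and 2472 in Stag2-KO siStag1. The Stag1-KO siGLO and Stag2-KO siStag1 libraries were above those of WT siGLO, while WT siStag1 and Stag2-KO siGLO each overlapped with WT siGLO. Cdkn1c rose by 1.16 ± 0.19 (log2 scale, adjusted p = 7.40e-04) in Stag1-KO siGLO and 1.37 ± 0.19 (adjusted p = 5.35e-05) in Stag2-KO siStag1. In WT siStag1 it was 0.70 ± 0.19 (log2 scale, adjusted p = 0.287), which passed in DESeq2 (adjusted p = 0.0654) and with the replicate block (adjusted p = 0.0648). In Stag2-KO siGLO it was 0.46 ± 0.19 (log2 scale, adjusted p = 0.104), which passed with the block (adjusted p = 0.0379) and in DESeq2 (adjusted p = 0.0741).

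Slc22a18 (chr7:143473736-143499334, + strand), a transporter gene, was at 131, 111 and 138 normalized counts in WT siGLO, 92.1, 94.7 and 117 in WT siStag1, 120.1, 108 and 94.9 in Stag1-KO siGLO, 79.3, 49.6 and 62.3 in Stag2-KO siGLO and 32.5, 68.7 and 54.6 in Stag2-KO siStag1. The 6 Stag2-/- libraries were below the 9 others. It fell in Stag2-KO siGLO, at -0.99 ± 0.24 (log2 scale, adjusted p = 0.00921), and in Stag2-KO siStag1, at -1.29 ± 0.25 (adjusted p = 7.32e-04). Ascl2 (chr7:142966829-142969264, - strand), a transcription factor of trophoblast progenitors, was at 62.6, 85.4 and 120.0 normalized counts in WT siGLO, 69.9, 80.9 and 96.7 in WT siStag1, 75.8, 82.8 and 111 in Stag1-KO siGLO, 67.7, 43.1 and 26.4 in Stag2-KO siGLO and 42.4, 23.9 and 32.4 in Stag2-KO siStag1. All 3 Stag2-KO siStag1 libraries were below WT siGLO, and Stag2-KO siGLO overlapped with WT siGLO through replicate 1. Ascl2 fell, with -0.96 ± 0.32 (log2 scale, adjusted p = 0.0454) in Stag2-KO siGLO and -1.44 ± 0.33 (adjusted p = 0.00308) in Stag2-KO siStag1. The Ascl2 call in Stag2-KO siGLO was lost without WT siGLO replicate 3, or Stag2-KO siGLO replicate 2 or 3 (adjusted p up to 0.203, log2 fold change -1.36 to -0.69 over the 6 fits that left out 1 library). Phlda2, a growth-limiting gene of the placenta, ranged from 953 to 1790.0 normalized counts and was at 0.47 ± 0.20 (log2 scale, adjusted p = 0.134) in Stag1-KO siGLO, which passed with the replicate block (adjusted p = 0.0188). Tssc4 ranged from 374 to 491 and passed in no comparison.

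On chromosome 17, Igf2r (chr17:12682406-12769664, - strand), the maternally expressed receptor that removes IGF2, was at 2552, 2520 and 3300 normalized counts in WT siGLO, 3093, 2845 and 3223 in WT siStag1, 2749, 3189 and 2792 in Stag1-KO siGLO, 2424, 2733 and 3249 in Stag2-KO siGLO and 2891, 3411 and 3954 in Stag2-KO siStag1. Its groups overlapped, and the call in Stag2-KO siStag1 was small, at 0.29 ± 0.13 (log2 scale, adjusted p = 0.0956). The Igf2r call in Stag2-KO siStag1 was lost without WT siGLO replicate 1 or 2, or Stag2-KO siStag1 replicate 2 or 3 (adjusted p up to 0.363, log2 fold change 0.18 to 0.43 over the 6 fits that left out 1 library). Airn, the antisense RNA of the paternal copy, was at 0 to 12.8 normalized counts, under the count needed for a test. On chromosome 2, Gnas (chr2:174284320-174346744, + strand), the gene of the stimulatory G protein alpha subunit, was at 3929, 4651 and 4824 normalized counts in WT siGLO, 4578, 5033 and 5482 in WT siStag1, 5231, 4768 and 5459 in Stag1-KO siGLO, 4793, 6405 and 6952 in Stag2-KO siGLO and 6138, 7724 and 8270 in Stag2-KO siStag1. The Stag2-KO siStag1 libraries were above all WT siGLO libraries, and Stag2-KO siGLO replicate 1 overlapped with them. Gnas rose by 0.44 ± 0.13 (adjusted p = 0.0311) in Stag2-KO siGLO and 0.72 ± 0.14 (adjusted p = 6.16e-04) in Stag2-KO siStag1, and with the replicate block also passed in Stag1-KO siGLO (log2 fold change 0.21, adjusted p = 0.0769). The Gnas call in Stag2-KO siGLO was lost without WT siGLO replicate 1, or Stag2-KO siGLO replicate 2 or 3 (adjusted p up to 0.13, log2 fold change 0.33 to 0.58 over the 6 fits that left out 1 library). Its antisense RNA Nespas was at 20.3 to 56.1 normalized counts and passed in no comparison. Gnas and Nespas share 988 bp of exon on opposite strands.

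Among the genes taken singly, Mest, Zdbf2 and Peg13 were called in both knockout clones with opposite signs. Mest (chr6:30723547-30748465, + strand), a paternally expressed hydrolase-fold gene of mesoderm, was at 1799, 1557 and 1409 normalized counts in WT siGLO, 1773, 1720 and 1553 in WT siStag1, 335, 390.4 and 467 in Stag1-KO siGLO, 2518, 3735 and 4058 in Stag2-KO siGLO and 3207, 2859 and 3591 in Stag2-KO siStag1. The 3 Stag1-KO siGLO libraries were below every other library, and the 6 Stag2-/- libraries were above every other library. Mest was 3.99-fold lower in Stag1-KO siGLO and 2.16-fold higher in Stag2-KO siGLO. The log2 fold changes were -2.00 ± 0.17 (adjusted p = 1.19e-06) and 1.11 ± 0.16 (adjusted p = 1.58e-04). In Stag2-KO siStag1 the log2 fold change was 1.02 ± 0.16 (adjusted p = 1.15e-04). Mest and Copg2 share 912 bp of exon on opposite strands. The ratio of Mest to Copg2 normalized counts was 1.40 ± 0.24 (SD, n = 3) in WT siGLO, 0.397 ± 0.061 in Stag1-KO siGLO, 3.42 ± 0.47 in Stag2-KO siGLO and 3.14 ± 0.59 in Stag2-KO siStag1. Mest and Copg2 thus changed unequally.

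Zdbf2 (chr1:63273265-63314576, + strand), a zinc finger gene whose paternal copy is active, was at 3880, 3137 and 2563 normalized counts in WT siGLO, 3183, 2965 and 2190 in WT siStag1, 2185, 2376 and 2099 in Stag1-KO siGLO, 4410, 4413 and 3844 in Stag2-KO siGLO and 3533, 3046 and 3056 in Stag2-KO siStag1. The Stag1-KO siGLO libraries were below those of WT siGLO, and WT siGLO replicate 1 overlapped with Stag2-KO siGLO. The log2 fold change was -0.52 ± 0.14 (adjusted p = 0.0224) in Stag1-KO siGLO, 0.40 ± 0.14 (adjusted p = 0.057) in Stag2-KO siGLO and 0.01 ± 0.14 (adjusted p = 0.971) in Stag2-KO siStag1. The Zdbf2 call in Stag1-KO siGLO was lost without WT siGLO replicate 1 (adjusted p of 0.123, log2 fold change -0.66 to -0.36 over the 6 fits that left out 1 library). The Zdbf2 call in Stag2-KO siGLO was lost without WT siGLO replicate 2 or 3, or Stag2-KO siGLO replicate 1 or 2 (adjusted p up to 0.236, log2 fold change 0.27 to 0.57 over the 6 fits that left out 1 library).

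Peg13 (chr15:72805600-72810324, - strand), a paternally expressed non-coding RNA within an intron of Trappc9, had low counts, at 29.9, 10.2 and 16.4 normalized counts in WT siGLO, 27.97, 44.1 and 23.2 in WT siStag1, 63.98, 43.8 and 43.4 in Stag1-KO siGLO, 3.17, 0 and 3.17 in Stag2-KO siGLO and 1.97, 3.12 and 5.06 in Stag2-KO siStag1. The 6 Stag2-/- libraries, at 0 to 5.06 (no more than 5 counts), were below all others, and the Stag1-KO siGLO libraries were above those of WT siGLO. With so few counts the intervals are wide. The log2 fold change in Stag2-KO siGLO was -3.08 ± 0.64 (adjusted p = 0.00322), with a 95% interval of -4.34 to -1.83. In Stag2-KO siStag1 it was -2.45 ± 0.58 (log2 scale, adjusted p = 0.0038), with an interval of -3.59 to -1.30, and in Stag1-KO siGLO it was 1.40 ± 0.43 (adjusted p = 0.0385). The Peg13 call in Stag1-KO siGLO was lost without WT siGLO replicate 2 or 3, or Stag1-KO siGLO replicate 1 (adjusted p up to 0.162, log2 fold change 1.11 to 1.91 over the 6 fits that left out 1 library). Trappc9, on the same strand around it, was at 496 to 757 normalized counts and passed in no comparison.

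**Figure D3:**
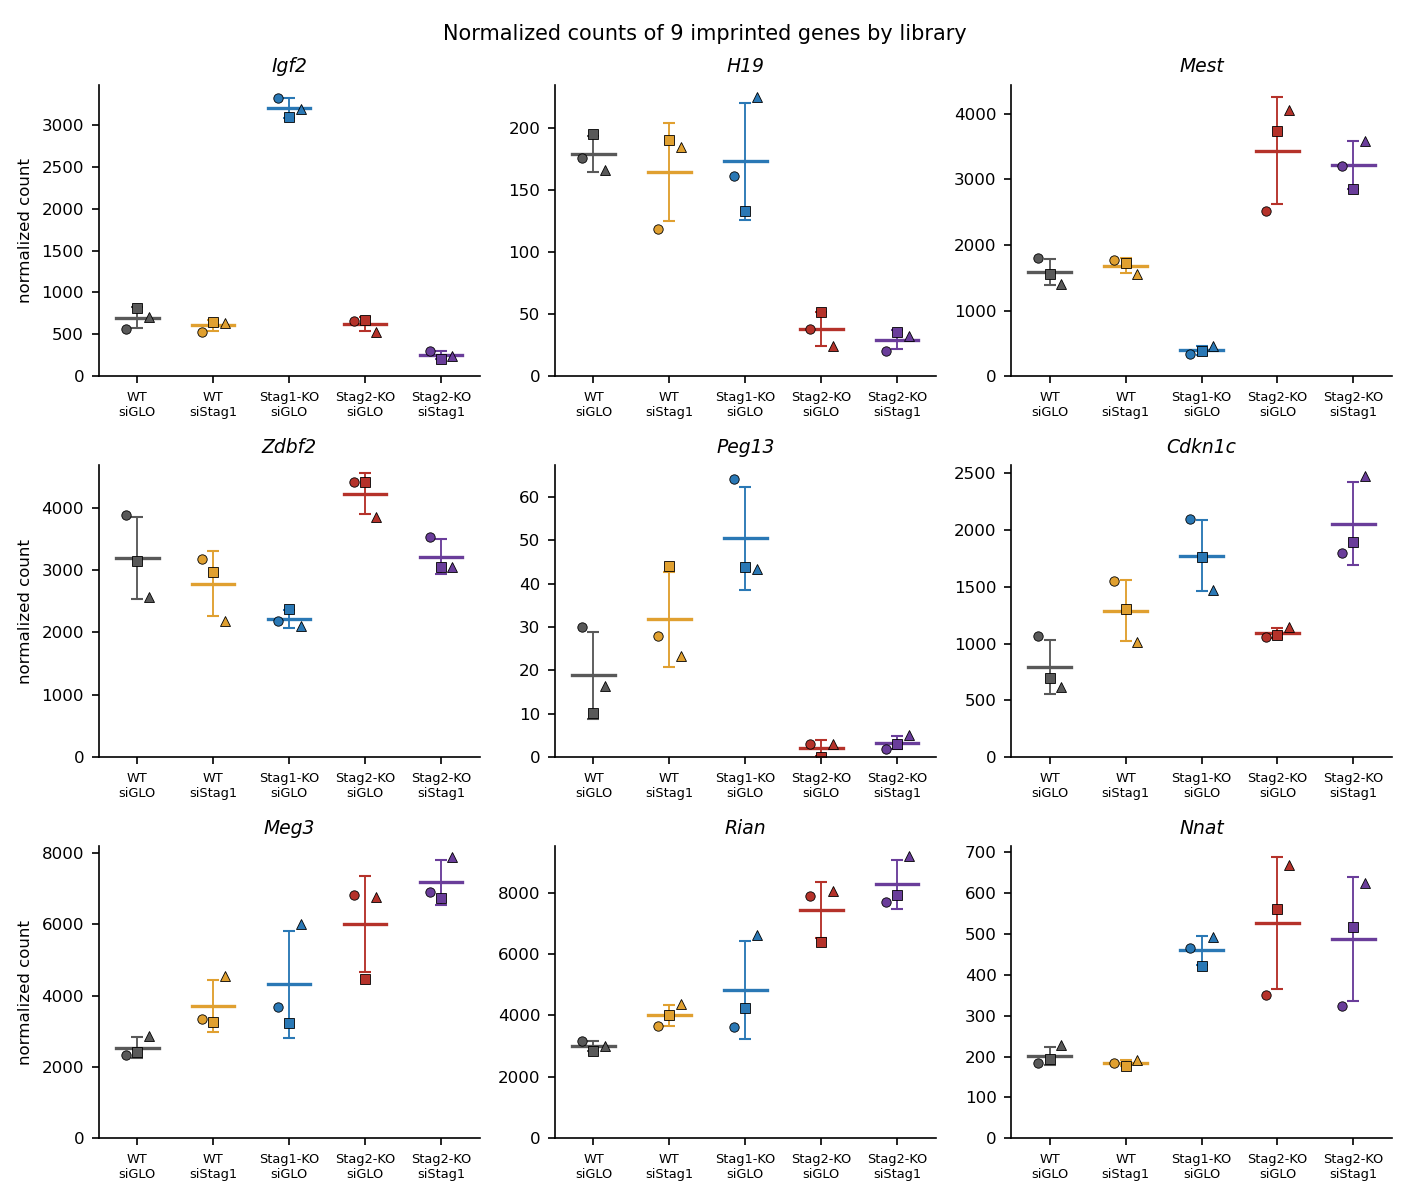
Normalized counts (vertical axes, from 0) of 9 imprinted genes in each library, by group; circles, squares and triangles are replicates 1, 2 and 3, the horizontal line is the mean and the bar 1 SD (n = 3). Igf2 is high only in the 3 Stag1-KO siGLO libraries (3092 to 3324), H19 is low in the 6 Stag2-/- libraries (20.7 to 51.7), and Mest is lowest in Stag1-KO siGLO and highest in the Stag2-/- groups.

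Nnat (chr2:157560078-157562522, + strand), a paternally expressed proteolipid gene of neural tissue, was at 185, 193 and 227 normalized counts in WT siGLO, 184, 177 and 192 in WT siStag1, 466, 422 and 493 in Stag1-KO siGLO, 350.2, 561 and 668 in Stag2-KO siGLO and 324, 518 and 624 in Stag2-KO siStag1. The 9 knockout libraries were above the 6 wild-type libraries, and replicate 1 was the lowest of both Stag2-/- groups. It rose by 1.19 ± 0.23 (log2 scale, adjusted p = 0.00204) in Stag1-KO siGLO, 1.38 ± 0.23 (adjusted p = 5.42e-04) in Stag2-KO siGLO and 1.27 ± 0.23 (adjusted p = 3.88e-04) in Stag2-KO siStag1. Nnat lies inside Blcap on the other strand. Inpp5f (chr7:128611328-128696425, + strand), an inositol phosphatase gene with a paternally expressed transcript, was at 460.0, 411 and 422 normalized counts in WT siGLO, 518, 512 and 468 in WT siStag1, 490.2, 633 and 519.8 in Stag1-KO siGLO, 526, 587 and 601 in Stag2-KO siGLO and 813, 745 and 714 in Stag2-KO siStag1. Every library outside WT siGLO was above the 3 WT siGLO libraries, with Stag2-KO siStag1 the highest. The rise was 0.35 ± 0.11 (log2 scale, adjusted p = 0.0447) in Stag1-KO siGLO, 0.41 ± 0.11 (adjusted p = 0.0156) in Stag2-KO siGLO and 0.81 ± 0.11 (adjusted p = 3.12e-05) in Stag2-KO siStag1. The Inpp5f call in Stag1-KO siGLO was lost without WT siGLO replicate 2 or 3, or Stag1-KO siGLO replicate 2 (adjusted p up to 0.192, log2 fold change 0.23 to 0.42 over the 6 fits that left out 1 library).

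Plagl1, Grb10 and Commd1 were called in Stag2-KO siGLO and not in the other 3 comparisons with WT siGLO. In Stag2-KO siStag1, Commd1 was called with the replicate block (log2 fold change 0.18, adjusted p = 0.0758) and Grb10 without replicate 1 of both Stag2-/- groups (log2 fold change 0.25, adjusted p = 0.0445). Plagl1 (chr10:13060504-13131694, + strand), a zinc finger gene known to regulate other imprinted genes, was at 78.5, 77.3 and 72.6 normalized counts in WT siGLO, 52.5, 71.7 and 79.3 in WT siStag1, 97.4, 93.5 and 121 in Stag1-KO siGLO, 41.3, 242 and 173 in Stag2-KO siGLO and 52.2, 69.7 and 88.99 in Stag2-KO siStag1. Stag2-KO siGLO replicate 1 was below WT siGLO and replicates 2 and 3 were far above it. The log2 fold change of 1.00 ± 0.40 (adjusted p = 0.092) therefore rested on replicates 2 and 3. The Plagl1 call in Stag2-KO siGLO was lost without WT siGLO replicate 1, 2 or 3, or Stag2-KO siGLO replicate 2 or 3 (adjusted p up to 0.45, log2 fold change 0.49 to 1.45 over the 6 fits that left out 1 library). Grb10 (chr11:11930508-12038683, - strand), an adaptor of growth factor receptors that limits growth, was at 7865, 7148 and 6793 normalized counts in WT siGLO, 7496, 6936 and 6802 in WT siStag1, 6607, 6999 and 7804 in Stag1-KO siGLO, 7172, 10860 and 11240 in Stag2-KO siGLO and 7807, 8251 and 9003 in Stag2-KO siStag1. Here too Stag2-KO siGLO replicate 1 was within the wild-type range, and the log2 fold change was 0.42 ± 0.13 (adjusted p = 0.0311). The Grb10 call in Stag2-KO siGLO was lost without WT siGLO replicate 3, or Stag2-KO siGLO replicate 2 or 3 (adjusted p up to 0.134, log2 fold change 0.31 to 0.60 over the 6 fits that left out 1 library). Commd1 (chr11:22896136-22982382, - strand), a gene of copper transport, was at 874, 824 and 888 normalized counts in WT siGLO, 887, 938 and 926 in WT siStag1, 791, 870.3 and 946 in Stag1-KO siGLO, 991, 1019 and 1012 in Stag2-KO siGLO and 999, 1013 and 913 in Stag2-KO siStag1. The Stag2-KO siGLO libraries lay above those of WT siGLO, by a small difference of 0.23 ± 0.08 (log2 scale, adjusted p = 0.0669). The Commd1 call in Stag2-KO siGLO was lost without WT siGLO replicate 1, 2 or 3, or Stag2-KO siGLO replicate 2 or 3 (adjusted p up to 0.214, log2 fold change 0.19 to 0.25 over the 6 fits that left out 1 library).

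Zrsr1 (chr11:22972005-22976496, + strand), a splicing factor gene on the opposite strand within Commd1, was at 359, 298 and 342 normalized counts in WT siGLO, 277, 304 and 302 in WT siStag1, 278, 321 and 306 in Stag1-KO siGLO, 293, 217 and 231 in Stag2-KO siGLO and 211, 184 and 187 in Stag2-KO siStag1. The Stag2-/- libraries were below WT siGLO. It fell in Stag2-KO siGLO, at -0.43 ± 0.13 (log2 scale, adjusted p = 0.0308), and in Stag2-KO siStag1, at -0.78 ± 0.13 (adjusted p = 3.05e-04). The Zrsr1 call in Stag2-KO siGLO was lost without Stag2-KO siGLO replicate 2 (adjusted p of 0.127, log2 fold change -0.57 to -0.35 over the 6 fits that left out 1 library). Zrsr1 and Commd1 share 412 bp of exon, and their log2 fold changes had opposite signs in both Stag2-/- groups. H13 (chr2:152669461-152708670, + strand), a signal peptide peptidase gene, was at 743, 642 and 612 normalized counts in WT siGLO, 704, 642 and 626 in WT siStag1, 663, 522 and 486 in Stag1-KO siGLO, 461, 484 and 419 in Stag2-KO siGLO and 499, 534 and 552 in Stag2-KO siStag1. The 6 Stag2-/- libraries lay below WT siGLO. H13 fell, with -0.55 ± 0.12 (adjusted p = 0.00456) in Stag2-KO siGLO and -0.33 ± 0.12 (adjusted p = 0.0385) in Stag2-KO siStag1 on the log2 scale, and was at -0.26 in Stag1-KO siGLO, which passed with the replicate block (adjusted p = 0.0744). The H13 call in Stag2-KO siStag1 was lost without WT siGLO replicate 1, or Stag2-KO siStag1 replicate 1 (adjusted p up to 0.154, log2 fold change -0.39 to -0.25 over the 6 fits that left out 1 library).

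Impact, a regulator of the translation-control kinase GCN2, was at 2141, 1957 and 1788 normalized counts in WT siGLO, 1922, 1679 and 1581 in WT siStag1, 1621, 2237 and 2165 in Stag1-KO siGLO, 2516, 2980 and 2676 in Stag2-KO siGLO and 2310, 2531 and 2354 in Stag2-KO siStag1. The Stag2-/- libraries were above those of WT siGLO. It rose by 0.47 ± 0.12 (log2 scale, adjusted p = 0.00965) in Stag2-KO siGLO and 0.29 ± 0.12 (adjusted p = 0.0634) in Stag2-KO siStag1. The Impact call in Stag2-KO siStag1 was lost without WT siGLO replicate 2 or 3, or Stag2-KO siStag1 replicate 2 or 3 (adjusted p up to 0.21, log2 fold change 0.22 to 0.35 over the 6 fits that left out 1 library). Nap1l5 (chr6:58905233-58907076, - strand), a small intronless gene inside Herc3, was at 3.74, 12.2 and 14.5 normalized counts in WT siGLO, 9.32, 11.96 and 7.74 in WT siStag1, 7.87, 5.84 and 7.23 in Stag1-KO siGLO, 12.7, 17.2 and 13.7 in Stag2-KO siGLO and 29.6, 17.7 and 16.2 in Stag2-KO siStag1. Only the Stag2-KO siStag1 difference passed, at 1.06 ± 0.42 (log2 scale, adjusted p = 0.0622), and Herc3 also rose there by 0.80 (SE 0.11). The Nap1l5 call in Stag2-KO siStag1 was lost without WT siGLO replicate 1, or Stag2-KO siStag1 replicate 1 (adjusted p up to 0.243, log2 fold change 0.66 to 1.41 over the 6 fits that left out 1 library). Without replicate 1 of both Stag2-/- groups it was 0.74 (adjusted p = 0.236). Dcn, an extracellular matrix gene, had 0 counts in all WT siGLO and Stag1-KO siGLO libraries, which allows up to 3 counts in each, and was at 9.86, 7.28 and 7.08 normalized counts in Stag2-KO siStag1. Elsewhere it was at 2.76 in WT siStag1 replicate 2, 2.11 in Stag2-KO siGLO replicate 3 and 0 in the remaining libraries of those groups. It was under the count needed for a test.

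The 2 knockout clones were also compared directly. Between Stag1-KO siGLO and Stag2-KO siGLO, 15 imprinted genes were called (39.5%), against 25.7% of all genes. Of these, 7 were higher and 8 lower in Stag1-KO siGLO, where 12.7% of all genes were higher and 12.9% lower. The log2 difference, Stag1-KO minus Stag2-KO, was 4.49 ± 0.59 (adjusted p = 9.90e-05) for Peg13, 2.36 ± 0.15 (adjusted p = 1.89e-07) for Igf2, 2.19 ± 0.28 (adjusted p = 8.56e-05) for H19 and -3.11 ± 0.17 (adjusted p = 5.04e-08) for Mest. Cdkn1c, Peg10, Slc22a18 and Ascl2 were also higher in Stag1-KO siGLO, and Ndn, Magel2, Zdbf2, Rian, Grb10, Impact and Commd1 higher in Stag2-KO siGLO. The Ascl2 call between the clones was lost without Stag1-KO siGLO replicate 3, or Stag2-KO siGLO replicate 2 or 3 (adjusted p up to 0.159, log2 fold change 0.70 to 1.37 over the 6 fits that left out 1 library). The Commd1 call between the clones was lost without Stag1-KO siGLO replicate 1 or 2, or Stag2-KO siGLO replicate 1, 2 or 3 (adjusted p up to 0.255, log2 fold change -0.28 to -0.15 over the 6 fits that left out 1 library). The Grb10 call between the clones was lost without Stag2-KO siGLO replicate 2 or 3 (adjusted p up to 0.111, log2 fold change -0.63 to -0.34 over the 6 fits that left out 1 library). The Magel2 call between the clones was lost without Stag1-KO siGLO replicate 2 (adjusted p of 0.128, log2 fold change -2.24 to -1.50 over the 6 fits that left out 1 library). The Slc22a18 call between the clones was lost without Stag1-KO siGLO replicate 1, or Stag2-KO siGLO replicate 2 (adjusted p up to 0.151, log2 fold change 0.60 to 0.94 over the 6 fits that left out 1 library). With the replicate block, whose numbers pair in this comparison, 22 were called, 11 in each direction, against 37.3% of all genes with the block. The 7 added were Kcnq1ot1 (0.56, adjusted p = 0.0866), Phlda2 (0.41, 0.0334), Zrsr1 (0.30, 0.0890), H13 (0.29, 0.0469), Gnas (-0.21, 0.0679), Meg3 (-0.50, 0.00541) and Mirg (-0.57, 0.0488), given as log2 differences with the adjusted p of the block. The fit without replicate 1 of both Stag2-/- groups called 19, against 27.1% of all genes in that fit. It added Phlda2 (0.70, adjusted p = 4.53e-04), Zrsr1 (0.43, 0.0267), Gnas (-0.37, 0.0146), Nnat (-0.42, 0.0294) and Plagl1 (-0.995, 0.00199), as log2 differences, and lost Commd1.

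Depletion of STAG1 in Stag2-/- cells was set against the same cells with siGLO. There 4 imprinted genes were called (10.5%), against 6.37% of all genes. Of these, 3 were higher, where 2.98% of all genes were higher, and 1 was lower, where 3.39% were. Igf2 fell, with a log2 fold change of -1.29 ± 0.15 (adjusted p = 1.20e-04). Cdkn1c rose by 0.91 ± 0.19 (log2 scale, adjusted p = 0.0129), Ndn by 0.76 ± 0.20 (adjusted p = 0.0439) and Inpp5f by 0.41 ± 0.11 (adjusted p = 0.0464). The Ndn call after siStag1 was lost without Stag2-KO siGLO replicate 1, or Stag2-KO siStag1 replicate 3 (adjusted p up to 0.204, log2 fold change 0.60 to 0.86 over the 6 fits that left out 1 library). The Inpp5f call after siStag1 was lost without Stag2-KO siGLO replicate 1, or Stag2-KO siStag1 replicate 2 (adjusted p up to 0.151, log2 fold change 0.35 to 0.45 over the 6 fits that left out 1 library). Without Stag2-KO siStag1 replicate 1 the count was 7, which was not set against all genes in that fit. Without Stag2-KO siGLO replicate 1, 1 of the 2 libraries that stood apart, 1 gene was higher (Cdkn1c) and 3 were lower: Igf2, Plagl1 at -1.56 (adjusted p = 0.00107) and Grb10 at -0.40 (adjusted p = 0.0278) on the log2 scale. Without replicate 1 of both groups, 2 were higher (Cdkn1c and Ndn) and the same 3 lower. With the replicate block 8 were called, adding Gnas, Igf2r, Plagl1 and Zdbf2, against 14.1% of all genes with the block.

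The same depletion in wild-type cells left Igf2 at -0.20 ± 0.15 (log2 scale, adjusted p = 0.999). A direct test of the difference between the siStag1 effects in Stag2-/- and wild-type cells called 1 imprinted gene, Igf2 (2.63% of 38), against 0.159% of all genes. The siStag1 effect on Igf2 in Stag2-/- cells minus that in wild-type cells was -1.10 ± 0.21 (adjusted p = 0.0596) on the log2 scale. This call was lost in 7 of the 12 fits that left out 1 library (adjusted p up to 0.218) and in the fit of only the libraries compared (adjusted p = 0.209). For Cdkn1c the difference was 0.22 ± 0.27 (log2 scale, adjusted p = 0.999), with a 95% interval that covers 0.

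Direction was also counted by the parental copy from which a gene is usually expressed, 17 maternal and 21 paternal among the 38. In Stag1-KO siGLO, 4 maternally expressed genes rose and none fell, while 7 paternally expressed genes rose and 2 fell, where 10.1% of all genes rose and 9.93% fell. In Stag2-KO siGLO, 6 maternal genes rose and 4 fell, and 11 paternal genes rose and 3 fell, where 13.9% of all genes rose and 14.4% fell. In Stag2-KO siStag1, the counts were 6 and 5 for maternal and 8 and 4 for paternal genes, where 22.6% of all genes rose and 21.3% fell. The classes were not tested against each other. Of the 42, 17 shared exons with another counted gene or lay inside one on the opposite strand. Without these 17, 23 tested genes were left, of which 8 were called in Stag1-KO siGLO (34.8%), 13 in Stag2-KO siGLO (56.5%) and 12 in Stag2-KO siStag1 (52.2%), beside the 20.0%, 28.3% and 43.9% of all genes. Other overlaps were not left out, so Peg13, inside Trappc9 on the same strand, was among the 23.

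Other genes lie within 500 kb of the imprinted genes, and 146 of them were tested, a set taken after the data were seen. In Stag1-KO siGLO 24 of these were called (16.4%), in Stag2-KO siGLO 31 (21.2%), in WT siStag1 2 (1.37%) and in Stag2-KO siStag1 56 (38.4%). In the 3 conditions with a knockout these shares were below those of all genes, given above, and those of the imprinted genes were above them. Regions differed within the pooled set. Of 10 tested genes near Inpp5f, 6 rose and 0 fell in Stag2-KO siStag1 (median log2 fold change 0.54), where 22.6% of all genes rose. Of 3 near the Snrpn cluster, 2 rose in each single knockout and 3 in Stag2-KO siStag1. Near Mest, 0 of 6 were called in either Stag2-/- group. The neighbours include further imprinted genes described below, Atp10a and Peg12 beside the Snrpn cluster, Casd1 beside Peg10/Sgce and Cobl beside Grb10. Whole chromosomes moved little: over the chromosomes that carry the 42 genes, the median log2 fold change was -0.04 to 0.05 in Stag1-KO siGLO and -0.04 to 0.09 in Stag2-KO siStag1.

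A second list held 48 other genes described as imprinted in mouse, of which 42 were among those counted and 31 were tested. In Stag1-KO siGLO 6 rose and 2 fell, in Stag2-KO siGLO 6 rose and 3 fell, in WT siStag1 none was called, and in Stag2-KO siStag1 7 rose and 6 fell. These were 25.8%, 29.0%, 0% and 41.9% of the 31, where 20.0%, 28.3%, 0.248% and 43.9% of all genes were called, so the shares in the Stag2-/- groups were near the background. The median log2 fold change of the 31 was 0.05 in Stag1-KO siGLO, -0.03 in Stag2-KO siGLO and -0.00 in Stag2-KO siStag1. Sfmbt2, a paternally expressed Polycomb-related gene of trophoblast, was at 970.5, 1218 and 948 normalized counts in WT siGLO, 926, 1088 and 829 in WT siStag1, 3555, 4619 and 3132 in Stag1-KO siGLO, 1388, 1652 and 934 in Stag2-KO siGLO and 1365, 1061 and 971 in Stag2-KO siStag1. Only the Stag1-KO siGLO libraries stood above the others, and the rise was 1.85 ± 0.20 (log2 scale, adjusted p = 1.37e-05). Asb4, which encodes an ankyrin repeat protein, was at 0.93, 9.15 and 4.84 normalized counts in WT siGLO, 4.66, 5.52 and 7.74 in WT siStag1, 5.91, 7.79 and 10.8 in Stag1-KO siGLO, 2.12, 17.2 and 21.1 in Stag2-KO siGLO and 18.7, 46.8 and 64.7 in Stag2-KO siStag1, and rose in Stag2-KO siStag1 by 3.12 ± 0.67 (log2 scale, adjusted p = 0.0019). Calcr, the calcitonin receptor gene, was at 9.35, 6.10 and 16.4 normalized counts in WT siGLO, 16.3, 11.04 and 13.5 in WT siStag1, 12.8, 20.4 and 10.8 in Stag1-KO siGLO, 15.9, 63.6 and 65.5 in Stag2-KO siGLO and 29.6, 62.4 and 37.4 in Stag2-KO siStag1. It rose by 2.17 ± 0.51 (log2 scale, adjusted p = 0.0071) in Stag2-KO siGLO, where replicate 1 lay within the WT siGLO range, and by 2.00 ± 0.51 (adjusted p = 0.00591) in Stag2-KO siStag1. Casd1, a sialic acid acetyltransferase gene, rose by 0.77 ± 0.18 (log2 scale, adjusted p = 0.00622) in Stag2-KO siGLO and 1.00 ± 0.18 (adjusted p = 3.54e-04) in Stag2-KO siStag1. Qpct, a glutaminyl cyclase gene at 9.04 to 37.4 normalized counts, fell in Stag1-KO siGLO, at -1.11 ± 0.35 (log2 scale, adjusted p = 0.0443), and in Stag2-KO siStag1, at -1.10 ± 0.35 (adjusted p = 0.0226). The values not called were, on the log2 scale, 0.34 ± 0.19 (adjusted p = 0.227) and 0.12 ± 0.19 (adjusted p = 0.675) for Sfmbt2 in Stag2-KO siGLO and Stag2-KO siStag1. For Asb4 they were 0.73 ± 0.77 (log2 scale, adjusted p = 0.591) in Stag1-KO siGLO and 1.44 ± 0.74 (adjusted p = 0.181) in Stag2-KO siGLO. In Stag1-KO siGLO Calcr was at 0.45 ± 0.55 (log2 scale, adjusted p = 0.648) and Casd1 at 0.31 ± 0.18 (adjusted p = 0.273), and in Stag2-KO siGLO Qpct was at -0.48 ± 0.34 (adjusted p = 0.345). Atp10a, a flippase gene beside Ube3a, was higher in all 3 knockout groups than in WT siGLO: its log2 fold change was 1.18 ± 0.13 (adjusted p = 2.15e-05) in Stag1-KO siGLO, 1.27 ± 0.13 (adjusted p = 1.08e-05) in Stag2-KO siGLO and 1.68 ± 0.13 (adjusted p = 1.64e-07) in Stag2-KO siStag1. Peg12, near Ndn, rose by 1.37 ± 0.28 (log2 scale, adjusted p = 0.00333), 1.42 ± 0.28 (adjusted p = 0.00226) and 2.02 ± 0.28 (adjusted p = 3.81e-05) in these groups. Cobl, an actin nucleator gene beside Grb10, fell in all 3, with -0.41 ± 0.08 (log2 scale, adjusted p = 0.00273), -0.50 ± 0.08 (adjusted p = 5.96e-04) and -1.71 ± 0.08 (adjusted p = 1.53e-09) in the same order.

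Factors that set or keep imprints formed another list of 17 genes, all tested. In Stag1-KO siGLO 2 rose and 3 fell, in Stag2-KO siGLO 4 rose and 2 fell, in WT siStag1 none was called, and in Stag2-KO siStag1 5 rose and 3 fell. These were 29.4%, 35.3%, 0% and 47.1% of the 17, beside the 20.0%, 28.3%, 0.248% and 43.9% of all genes. The median log2 fold change of the 17 was 0.03, 0.05 and 0.06 in the 3 knockout groups. Zfp57 was at 6794, 6504 and 5893 normalized counts in WT siGLO, 5856, 5827 and 5835 in WT siStag1, 4539, 3788 and 4706 in Stag1-KO siGLO, 5971, 3601 and 4371 in Stag2-KO siGLO and 1941, 1688 and 1672 in Stag2-KO siStag1. The 3 Stag2-KO siStag1 libraries were below all 12 others, and Stag2-KO siGLO replicate 1 overlapped with WT siGLO. Its log2 fold change was -0.56 ± 0.14 (adjusted p = 0.0129) in Stag1-KO siGLO, -0.46 ± 0.14 (adjusted p = 0.0276) in Stag2-KO siGLO and -1.86 ± 0.14 (adjusted p = 1.25e-07) in Stag2-KO siStag1. Its siStag1 effect differed between Stag2-/- and wild-type cells, by -1.26 ± 0.20 (log2 scale, adjusted p = 0.0146).

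Dnmt3b, a de novo DNA methyltransferase gene, was at 5791, 5025 and 4212 normalized counts in WT siGLO, 7814, 7392 and 5956 in WT siStag1, 10760, 9082 and 8028 in Stag1-KO siGLO, 15480, 14990 and 12590 in Stag2-KO siGLO and 21720, 17840 and 15630 in Stag2-KO siStag1. It rose in each knockout group, by 0.89 ± 0.15 (log2 scale, adjusted p = 7.37e-04), 1.52 ± 0.15 (adjusted p = 7.16e-06) and 1.88 ± 0.15 (adjusted p = 2.03e-07) in Stag1-KO siGLO, Stag2-KO siGLO and Stag2-KO siStag1. Dppa3, which protects maternal methylation in the zygote, rose by 1.63 ± 0.18 (log2 scale, adjusted p = 1.61e-05) in Stag1-KO siGLO and 0.75 ± 0.18 (adjusted p = 0.00741) in Stag2-KO siGLO, and was at 0.20 ± 0.18 (adjusted p = 0.414) in Stag2-KO siStag1. Dnmt3a, the other de novo methyltransferase gene, was at 6296, 4859 and 4164 normalized counts in WT siGLO, 8021, 6900 and 5447 in WT siStag1, 6645, 5314 and 4504 in Stag1-KO siGLO, 12260, 6706 and 6185 in Stag2-KO siGLO and 14400, 8622 and 8061 in Stag2-KO siStag1, with replicate 1 the highest of every group. It rose by 0.72 ± 0.26 (log2 scale, adjusted p = 0.0638) in Stag2-KO siGLO and 1.02 ± 0.26 (adjusted p = 0.00627) in Stag2-KO siStag1, and was at 0.10 ± 0.26 (adjusted p = 0.843) in Stag1-KO siGLO. Tet2, a gene of methylcytosine oxidation, fell by 0.54 on the log2 scale in both single knockouts and by 1.46 in Stag2-KO siStag1. Ctcfl, a germline paralog of Ctcf, was low, at 3.17 to 69.0 normalized counts, and rose in Stag2-KO siStag1, by 1.74 ± 0.51 (log2 scale, adjusted p = 0.0138). It was at -0.40 ± 0.57 (log2 scale, adjusted p = 0.708) in Stag1-KO siGLO and -0.87 ± 0.60 (adjusted p = 0.333) in Stag2-KO siGLO. The part of these factors in the imprinted genes' changes was not tested.

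Markers of cell types that mESC cultures can hold moved with the groups. The 8 primitive endoderm markers, among them Gata4, Gata6 and Sox17, all fell in Stag1-KO siGLO, Stag2-KO siGLO and Stag2-KO siStag1, and none was called in WT siStag1. Their summed level was 17510 to 18100 normalized counts in WT siGLO, 16390 to 17250 in WT siStag1, 2085 to 3039 in Stag1-KO siGLO, 2473 to 4263 in Stag2-KO siGLO and 2909 to 4256 in Stag2-KO siStag1. None of the 8 was at 0 in a whole group.

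Of the 8 trophoblast markers, 7 were tested, and 4 rose in Stag1-KO siGLO (Cdx2, Hand1, Krt7 and Krt8) while 3 fell in Stag2-KO siGLO and 3 in Stag2-KO siStag1. Their summed level was 2657 to 3354 normalized counts in WT siGLO, 2203 to 2680.0 in WT siStag1, 4399 to 7020.0 in Stag1-KO siGLO, 1335 to 2116 in Stag2-KO siGLO and 1089 to 1747 in Stag2-KO siStag1. Igf2, Peg10, Cdkn1c and Sfmbt2 also rose in Stag1-KO siGLO. Phlda2 was not called there in the main fit but was with the replicate block (log2 fold change 0.47, adjusted p = 0.0188). Ascl2 was not called there in the main fit, with a log2 fold change of 0.01 ± 0.31 (adjusted p = 0.988). Cdkn1c rose in Stag2-KO siStag1 too, where the trophoblast sum was below that of WT siGLO. The part of trophoblast cells in these values was not tested. None of the 8 was at 0 in a whole group.

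Of 10 ESC markers, 1 fell in Stag1-KO siGLO, 4 in Stag2-KO siGLO and 8 in Stag2-KO siStag1, and their sum ranged from 113200 to 118600 normalized counts in WT siGLO and from 66490 to 84710 in Stag2-KO siStag1. Fibroblast markers summed to 469 to 853.5 normalized counts in all libraries, with 2 of the 6 tested higher and 1 lower in Stag2-KO siGLO, and 2 higher in Stag2-KO siStag1. Among them, Lum was at 0 in every WT siGLO and WT siStag1 library, and Postn in every Stag2-KO siStag1 library. The 6 mesoderm markers summed to 101 to 104 normalized counts in WT siGLO, 75.5 to 108.5 in WT siStag1, 101 to 145 in Stag1-KO siGLO, 149 to 333 in Stag2-KO siGLO and 77.9 to 91.7 in Stag2-KO siStag1, and none was at 0 in a whole group. Of the 5 tested, the transcription factor gene T rose by 3.80 ± 0.62 (log2 scale, adjusted p = 5.21e-04) in Stag2-KO siGLO and 2.02 ± 0.64 (adjusted p = 0.021) in Stag2-KO siStag1. Kdr, a receptor gene, was called lower in Stag2-KO siStag1, at -2.05 ± 0.49 (log2 scale, adjusted p = 0.00388). None was called in Stag1-KO siGLO or WT siStag1. The part of these cell types in the imprinted genes' values was not tested.

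**Figure D4:**
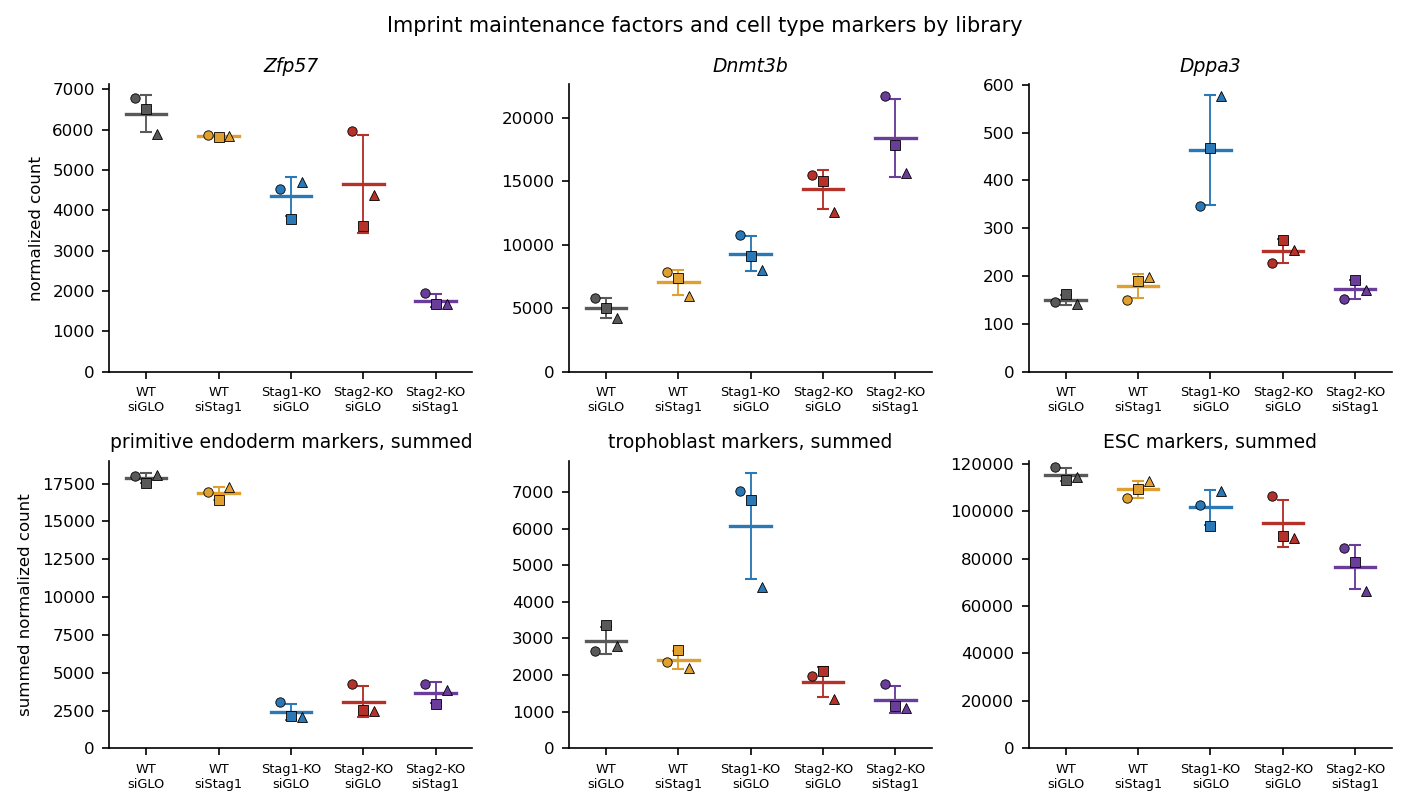
Normalized counts of Zfp57, Dnmt3b and Dppa3 (top) and summed normalized counts of primitive endoderm, trophoblast and ESC markers (bottom) in each library; circles, squares and triangles are replicates 1, 2 and 3, with the mean as a line and 1 SD as a bar (n = 3). Zfp57 is lowest in Stag2-KO siStag1 (1672 to 1941), and the primitive endoderm sum is at most 4263 in the 3 knockout groups and at least 16390 in the wild-type groups.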

How the data were processed

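Raw read counts per gene, with alignment by STAR to mm10 per the submitters' processing notes, were deposited by the authors for each library. The counting tool, annotation and strand setting are not given in the sources used here. The 4 summary lines of each file, which name no gene, were set aside. Tests used edgeR 4.0.16 (R 4.3.3): genes kept by filterByExpr (count 10, total 15), TMM factors, a quasi-likelihood fit with a coefficient for each of the 5 groups, and two-sided contrasts called at 0.1 after Benjamini-Hochberg adjustment. The fit was tested on simulated data. The SE is the log2 fold change over the square root of F. Positions and exon overlaps are from GENCODE M21 (GRCm38), promoters from RefSeq (GRCm38.p6).

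The members and lists were chosen with earlier results of these data known. A member called against WT siGLO is given by library and the others by range. From the second imprinted list and the factor list, the 4 called genes with the largest change in each comparison with WT siGLO are named, with their values in the 3 knockout conditions. Marker lists are given by counts and summed levels, with some called markers named. Neighbouring genes were added after the data were seen.

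Same-numbered libraries deviated together: the mean r was 0.311 over 30 pairs (11530 genes), against -0.152 over 60 pairs of unlike number. By the replicate numbers in the labels, every pair passed 0.1 in 5 of the 7 comparisons, but not in Stag2-KO siStag1 against WT siGLO (lowest r 0.047) nor in the difference between siStag1 effects (-0.092). Alternatives were DESeq2 1.42.0, its size factors, unscaled library sizes, other expression filters, separate fits, a threshold of 0.05, omission of overlapping genes, a replicate block, and omission of each library in turn. A count of 0 allows up to 3 counts, for counting error only.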

Additional observations from a re-analysis of the deposited data

Results flagged for a closer look

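The effect of siStag1 on Igf2 differed between genotypes by a direct test: the log2 fold change after siStag1 in Stag2-/- cells minus that in wild-type cells was -1.10 (SE 0.21, edgeR adjusted p = 0.0596). Normalized counts went from 666, 677 and 526 to 305, 209 and 247 in Stag2-/- cells, where no library overlapped between siGLO and siStag1. In wild-type cells they went from 565, 817 and 709.5 to 533, 649 and 640.4, and the libraries overlapped. The adjusted p was above 0.1 in 7 of the 12 fits that left out 1 library, and reached 0.218, while the difference stayed between -1.25 and -0.97. Those 7 left out WT siGLO replicate 1 or 3, WT siStag1 replicate 2 or 3, Stag2-KO siGLO replicate 2, or Stag2-KO siStag1 replicate 2 or 3. It was 0.0204 with the replicate block and 0.209 with only the libraries compared. No other gene of the 38 passed this test. Cobl, of the second imprinted list, did, with a difference of -0.86 (SE 0.12, edgeR adjusted p = 0.00398).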

How the results depend on the processing

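Of the 60 member values called against WT siGLO, 39 were kept in every fit that left out 1 library, 21 were lost in at least 1 such fit, and none turned its sign in any fit run. With at least 10 counts in every library, 7 of the 60 could not be tested. The replicate block lost none of the 60 and gave 18, 25, 2 and 27 called genes in Stag1-KO siGLO, Stag2-KO siGLO, WT siStag1 and Stag2-KO siStag1, against 13, 24, 0 and 23 without it. Over all genes it called 30.6%, 39.4%, 1.63% and 53.7%, against 20.0%, 28.3%, 0.248% and 43.9%. It gave 8 in place of 4 for Stag2-KO siStag1 against Stag2-KO siGLO, with 14.1% of all genes called in place of 6.37%. Leaving out members that shared exons with another gene or lay inside one on the opposite strand gave 8, 13 and 12 called in Stag1-KO siGLO, Stag2-KO siGLO and Stag2-KO siStag1. In that count 15 tested members were left out. In WT siStag1, DESeq2 called 1, against 0.903% of all genes, and a fit of only the libraries compared called 1, against 0.909%. The fit without WT siGLO replicate 1 also called 1 in WT siStag1. The fit of only the libraries compared gave 2 for Stag2-KO siStag1 against Stag2-KO siGLO, with 1.61% of all genes called, against 4 and 6.37% in the main fit. For the difference between siStag1 effects it gave 0, with 0.0974% of all genes called, against 1 and 0.159%. The count for that difference was also 0 at an adjusted p under 0.05. The cause was not tested. Leaving out 1 library gave 15 to 21 called genes in Stag2-KO siGLO, 10 to 14 in Stag1-KO siGLO, 19 to 22 in Stag2-KO siStag1, 0 to 1 in WT siStag1, 3 to 7 for Stag2-KO siStag1 against Stag2-KO siGLO and 0 to 1 for the difference between siStag1 effects. The counts of these fits were not set against all genes. No scaling moved the median of all genes by more than 0.0191 on the log2 scale. Depth limits Peg13, Magel2, Rtl1, Nap1l5, Zim1 and Usp29, and the 4 genes that were not tested.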
